A study of Homo sapiens with 9 samples.

Results

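The 39 genes described here encode the machinery that copies DNA and supplies its building blocks, chosen by symbol from 58920 genes listed for each library. They were counted in LIM1215 cells, an established colorectal cancer line, as LIM1215-parental, which grew alongside without drug, and as LIM1215-R1 and LIM1215-R2, populations selected separately for growth under rising doses of the anti-EGFR antibody cetuximab. Both resistant lines are mixed populations rather than clones and, per the study, hold a subpopulation of cells with an activating HRAS mutation, in a different exon in each line. All 3 lines grew in RPMI with FBS, and RNA was taken from cells in basal culture without drug. Each line gave 3 libraries, 9 in all, which the study's supplement calls technical replicates. P-values therefore measure the spread between these libraries, and the lines cannot be told apart from the cultures and harvests that gave them.

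DNA replication begins when the origin recognition complex, CDC6 and CDT1 load rings of MCM2-7 helicase onto origins in G1 phase, a step that geminin, the product of GMNN, blocks after it has been done. At the start of S phase CDC45, the GINS complex and MCM10 turn the loaded rings into active helicases, polymerase alpha-primase lays down primers, the clamp loader RFC places the PCNA ring, RPA covers single strands, and FEN1 and LIG1 join the fragments of the lagging strand. Ribonucleotide reductase, thymidylate synthase, thymidine kinase and dUTPase supply deoxynucleotides, while CAF-1 and SLBP serve the histones that wrap new DNA, and E2F factors are known to switch on many of these genes as cells enter S phase. RNA from a whole culture cannot tell apart fewer cells in S phase from less RNA of these genes per cell.

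The promoters of the genes that differed most against LIM1215-parental in both resistant lines are shown first, because the genes of this machinery are known as E2F targets and because the genes that rose and the genes that fell can then be set side by side. The stretches run from 150 bases before to 25 bases after the RefSeq transcription start on GRCh38.p14, on the strand of the gene, 5′ to 3′. Capitals mark E2F motifs on either strand and the CCAAT box, also on either strand. The E2F motif was searched as TTCCCGC and in the further forms TTGGCGC with its relatives TTCGCGC and lastly TTGCCGC. RRM2 at chr2:10122589-10122763 on the plus strand, CDC6 at chr17:40287729-40287903 on the plus strand and GINS3 at chr16:58392321-58392495 on the plus strand belong to genes with more RNA in both resistant lines. GMNN at chr6:24774787-24774961 on the plus strand and MCM3 at chr6:52284718-52284892 on the minus strand belong to genes with less.
RRM2: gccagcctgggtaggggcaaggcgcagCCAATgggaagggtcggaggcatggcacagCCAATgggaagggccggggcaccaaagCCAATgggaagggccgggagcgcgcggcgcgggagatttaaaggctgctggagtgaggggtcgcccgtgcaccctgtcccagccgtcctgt
CDC6: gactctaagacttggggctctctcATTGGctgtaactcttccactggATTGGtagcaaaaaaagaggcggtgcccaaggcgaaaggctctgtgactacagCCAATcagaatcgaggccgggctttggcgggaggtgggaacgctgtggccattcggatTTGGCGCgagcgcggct
GINS3: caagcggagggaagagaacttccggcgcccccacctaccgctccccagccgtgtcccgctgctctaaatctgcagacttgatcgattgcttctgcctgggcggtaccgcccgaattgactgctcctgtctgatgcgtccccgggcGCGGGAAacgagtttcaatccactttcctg
GMNN: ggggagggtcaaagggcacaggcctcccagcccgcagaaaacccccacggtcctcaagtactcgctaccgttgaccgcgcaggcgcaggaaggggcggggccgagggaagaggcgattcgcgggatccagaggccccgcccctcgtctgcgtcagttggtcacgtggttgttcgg
MCM3: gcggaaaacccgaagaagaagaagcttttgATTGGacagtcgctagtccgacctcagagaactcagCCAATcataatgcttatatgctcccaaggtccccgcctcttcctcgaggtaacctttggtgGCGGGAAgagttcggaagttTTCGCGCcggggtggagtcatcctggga

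The stretch of RRM2 held 3 CCAAT boxes and 0 E2F motifs, that of CDC6 held 3 CCAAT boxes and 1 E2F motif, and that of GINS3 held 1 E2F motif that began 5 bases before the start. The stretch of MCM3 held 2 motifs of either kind, and that of GMNN held neither. These counts hold only for the exact forms listed, and other forms of the E2F motif were not searched or marked. RefSeq places the RRM2 start used here inside a longer annotated RRM2 gene (chromosome 2, 10122568 to 10211010), so the printed stretch is upstream of one transcript and within the span of the gene. MCM5, the member with the largest fall, is named only. Over windows of 300 bases, from 250 before to 50 after the start, 24 of the 34 members with a RefSeq window (70.6%) held an E2F motif, beside 13% of all 35116 windows. With the form TTCCCGC and only TTGGCGC beside it the count was 21 members (61.8%), beside 9.23% of all windows. A CCAAT box lay in 18 of the 34 windows (52.9%), beside 34.6% of all, and the CHR motif TTTGAA, known from genes of late cell cycle phases, in 1 (2.94%, RRM1), beside 15.2% of all. Such matches are letters in a window and were not tested for binding. The windows set beside the members were not limited to the genes tested here or matched to the members in base composition, so the shares are a description only.

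All 39 symbols were listed once in each library and all 39 passed the filter on low counts, with at least 335 counts in every library. Together they made up 0.557% to 0.592% of all counts in a library, and total counts ranged from 13737416 to 18725014. All 11 colorectal epithelial markers were present, with EPCAM at 705 to 936 CPM (counts scaled to library size with TMM factors) and a summed level of 13400 to 13800 CPM in LIM1215-parental, 16700 to 17000 in LIM1215-R1 and 15200 to 15600 in LIM1215-R2. KRT8 and KRT18, at 5560 to 8080 and 4070 to 5540 CPM, made up most of that sum. By gene, 4 of the 11 (36.4%) were called higher and 6 (54.5%) lower in each resistant line. Of all genes tested, 14% and 13.4% were called higher and lower in LIM1215-R1, and 12.3% and 11.6% in LIM1215-R2. The median log2 fold changes of the 11 were -0.233 and -0.321. EPCAM had -0.26 and -0.32 and the intestinal factor CDX1 -0.85 and -0.65. The part of these differences in the results was not tested. The defining markers COL1A2, PDGFRA, PTPRC, CD3E and KDR of fibroblasts, leukocytes and endothelium had 0 counts in all libraries. Of the other markers of these types, COL1A1, PDGFRB, LYZ and PECAM1 stayed at or below 1.77 CPM. LYZ, with 28 counts over the 9 libraries, was called lower in LIM1215-R2 and PECAM1, with 15, in both resistant lines. CD68, which macrophages express strongly but not alone, had 6.78 to 14.2 CPM, with a log2 fold change of 0.70 (adjusted p = 9.24e-05) in LIM1215-R1 and 0.26 (adjusted p = 0.167) in LIM1215-R2. Deviations of the members between libraries of the same line went with GC content, as the plot of deviations against GC content shows. The deviation of the 39 members from the mean of their line rose with the GC content of their transcripts in LIM1215-parental replicate 2 (r = 0.718 across genes), LIM1215-R1 replicate 2 (r = 0.699) and LIM1215-R2 replicate 3 (r = 0.69). It fell with GC content in LIM1215-R1 replicate 1 (r = -0.677), LIM1215-parental replicates 1 and 3 (r = -0.525 and -0.506) and LIM1215-R2 replicate 1 (r = -0.495). Each deviation was taken from the mean of the libraries of its own line, so the slopes within a line depend on each other. Genes are not independent replicates.

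**Figure D1:**
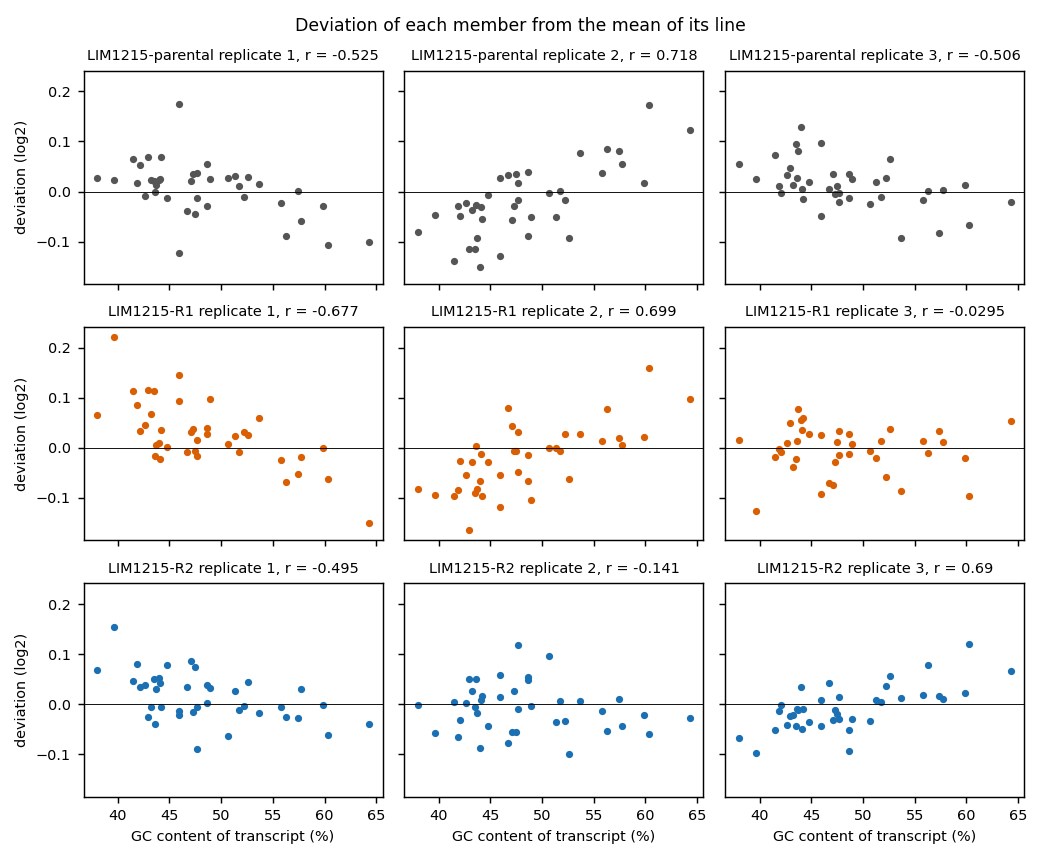
Deviation of each of the 39 members from the mean of its line (log2, y axis) against the GC content of its transcript (percent, x axis) in each of the 9 libraries, 1 point per gene. The points slope upward in LIM1215-parental replicate 2, LIM1215-R1 replicate 2 and LIM1215-R2 replicate 3, with r of 0.718, 0.699 and 0.69.

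Per kilobase of transcript, the members were well expressed in LIM1215-parental. All 39 lay above the median of the 16478 genes tested that have a transcript length, 33 lay in the top 25% and 18 in the top 10%. PCNA, the sliding clamp, was highest at 244 ± 17.7 CPM per kb (SD, n = 3), above MCM7 at 197 ± 4.46 and TYMS, thymidylate synthase, at 191 ± 5.72, of which the last pair lay within their spread. RRM2 followed at 135 ± 4.73, and the lowest were POLA1 at 12.8 ± 0.867 and PRIM2 at 12.4 ± 1, subunits of polymerase alpha-primase that did not differ beyond their spread. In the resistant lines RRM2 reached 183 ± 3.92 in LIM1215-R1 and 183 ± 4.13 in LIM1215-R2, level with MCM7 at 184 ± 2.8 and 187 ± 2.15. By coding length in place of transcript length RRM2 ranked 1 in LIM1215-R1 rather than 4. The plot of levels per kilobase gives the order of all 39 genes.

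**Figure D2:**
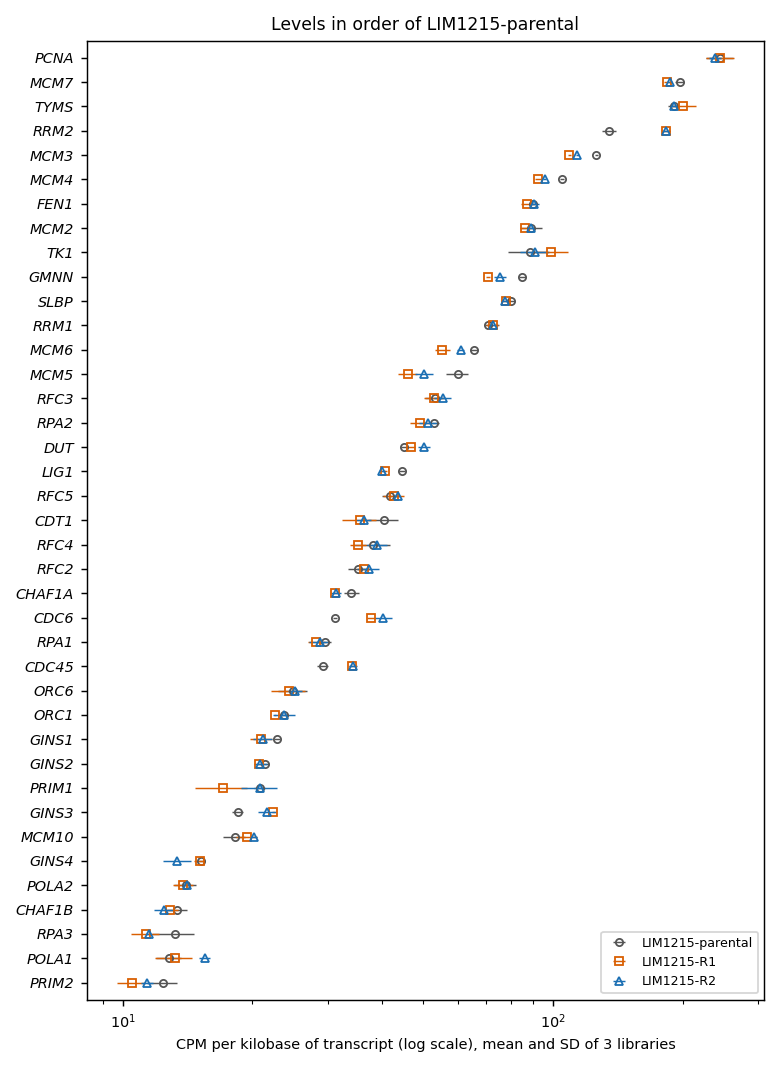
Level of each member in CPM per kilobase of transcript (log scale, x axis), mean and SD of 3 libraries in LIM1215-parental (circles), LIM1215-R1 (squares) and LIM1215-R2 (triangles), ordered by LIM1215-parental. Levels run from 12.4 for PRIM2 to 244 for PCNA in LIM1215-parental, and the symbols of RRM2 separate, with 135 against 183 in both resistant lines.

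The first question was which of these genes differed between LIM1215-R1 and LIM1215-parental. RRM2, CDC6, GINS3 and CDC45 rose, MCM5, GMNN, MCM6, MCM3 and MCM4 fell, and 30 members did not pass the test (quasi-likelihood test in edgeR, Benjamini-Hochberg adjusted over 19102 genes, at an adjusted p of 0.01 or less). These 9 were 23.1% of the members, beside 27.3% of all genes tested and 40.3% of the 10085 genes that averaged 100 counts or more. The 4 that rose were 10.3% of the members, beside 14% of all genes, and the 5 that fell were 12.8%, beside 13.4%. These shares lay near or below the background. The share that fell depended on the scaling, and so did that of all genes. With total counts as the scale 10 members were called lower (25.6%), beside 15.3% of all genes and 23.4% of those averaging 100 counts or more. After removal of each library's trends with GC content and length 13 were called lower (33.3%), beside 17.5% and 27.2%. Log2 fold changes of the members lay between -0.38 and 0.44, with a median of -0.045 beside -0.011 over all genes. None reached the study's threshold for differentially expressed genes, which 5.14% of all genes passed. That threshold also asks for 1.5 or more on the log2 scale in either direction. By edgeR, 17 of the 39 members had an unadjusted p under 0.05, beside 8230 of 19102 genes and 5931 of the 10085 averaging 100 counts or more. Log2 fold changes by DESeq2 and all other alternatives stayed between -0.51 and 0.47. The 3 libraries of LIM1215-R1 lay wholly above those of LIM1215-parental for 5 members and wholly below for 11, beside 21.6% and 22.4% of all genes.

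The same comparison for LIM1215-R2, which shares the 3 parental libraries with the one above, called 5 members higher and 4 lower. CDC6, RRM2, POLA1, GINS3 and CDC45 rose and MCM5, GMNN, MCM3 and MCM4 fell. This was again 23.1% of the members, beside 23.8% of all genes and 34.9% of those that averaged 100 counts or more, and 12.3% and 11.6% of all genes were called higher and lower. Log2 fold changes lay between -0.26 and 0.44, with a median of -0.007 beside -0.004 over all genes. No member passed the threshold of 1.5, which 4.82% of all genes passed. An unadjusted p under 0.05 by edgeR was found for 17 members, beside 7611 of 19102 genes and 5489 of the 10085 averaging 100 counts or more. Groups did not overlap for 7 members higher and 11 lower in LIM1215-R2, beside 21.2% and 21.6% of all genes. The plot of changes by gene sets the values of the comparisons side by side. Without LIM1215-parental replicate 2, LIM1215-R1 replicate 2 and LIM1215-R2 replicate 3, the libraries that rose with GC content, the counts were 5 higher and 5 lower in LIM1215-R1 and 6 higher and 4 lower in LIM1215-R2. In LIM1215-R1 these were 12.8% and 12.8% of the members, beside 15.9% and 14% of all genes and 22.6% and 20.3% of those averaging 100 counts or more. In LIM1215-R2 they were 15.4% and 10.3%, beside 14.5% and 12.8% of all genes and 21.1% and 18% of those averaging 100 counts or more.

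**Figure D3:**
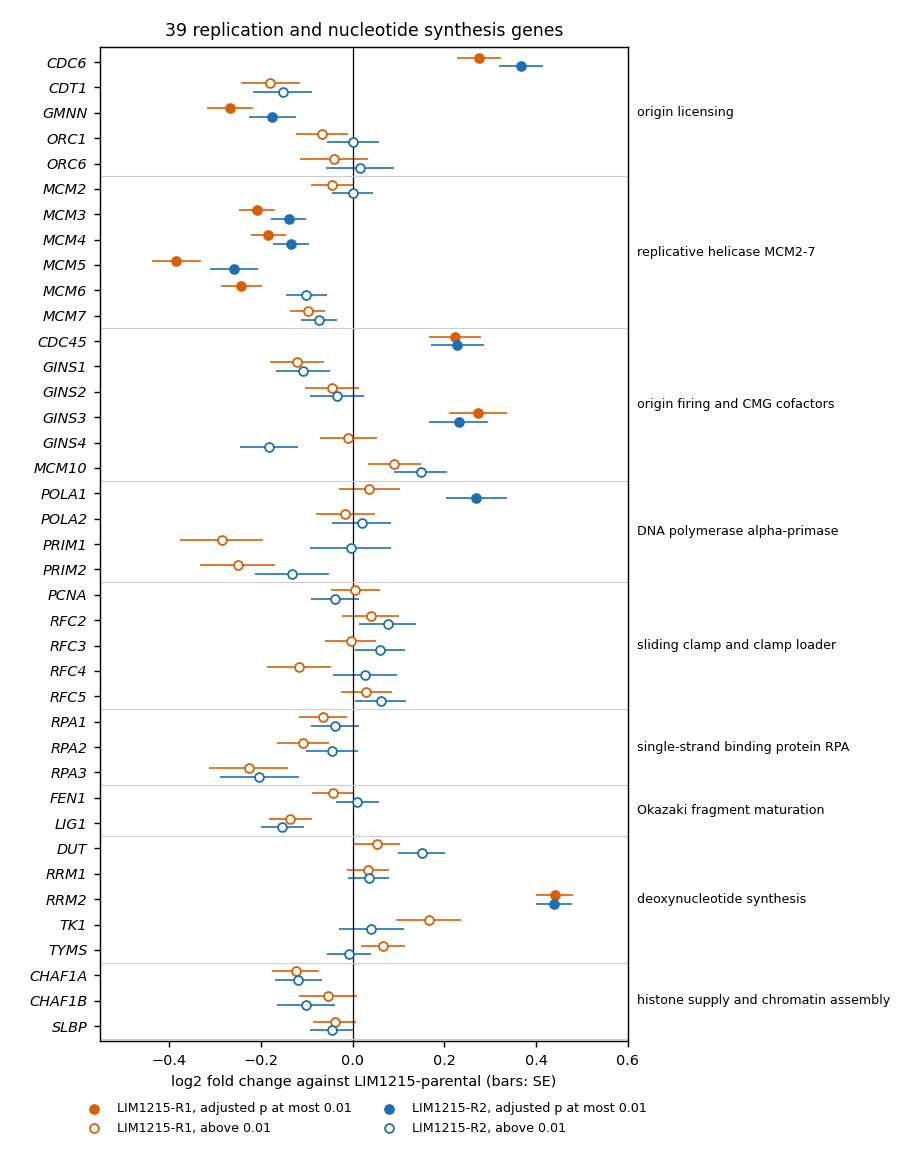
Log2 fold change of each of the 39 members against LIM1215-parental (x axis, bars are the SE) in LIM1215-R1 and LIM1215-R2, grouped by role, with filled symbols for an adjusted p of at most 0.01. Filled symbols to the right are CDC6, CDC45, GINS3, RRM2 and, in LIM1215-R2, POLA1, and the farthest to the left is MCM5 in LIM1215-R1 at -0.38.

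The largest change among the members was that of RRM2 (chromosome 2), the small subunit of ribonucleotide reductase, whose level is known to limit the making of deoxynucleotides. RRM2 stood at 455, 424 and 438 CPM in LIM1215-parental, at 610, 585 and 592 CPM in LIM1215-R1 and at 609, 582 and 594 CPM in LIM1215-R2. All 6 resistant libraries lay above the 3 parental ones, and the resistant lines overlapped each other. This was 1.36-fold in each line, a log2 fold change of 0.44 with an SE of 0.040 (adjusted p = 6.72e-10 in LIM1215-R1 and 7.18e-10 in LIM1215-R2). Its partner RRM1, the large subunit, did not pass the test, standing at 222 ± 4.44 CPM (SD, n = 3) in LIM1215-parental, at 228 ± 7.96 in LIM1215-R1 and at 228 ± 6.31 in LIM1215-R2. The ratio of RRM2 to RRM1 CPM was 1.97 ± 0.0727, 2.62 ± 0.0468 and 2.61 ± 0.0661 in the same order of lines, and its 3 parental values lay below all 6 resistant ones. An exact two-sided permutation test gave p = 0.1 for each line, the smallest that 3 against 3 libraries allow, and 0.18 after adjustment over 18 such ratio tests.

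The other suppliers of deoxynucleotides did not pass the test in either line. TYMS, which makes thymidylate, had log2 fold changes of 0.07 and -0.01, TK1, the thymidine kinase of the salvage route, 0.17 and 0.04, and DUT, which removes dUTP, 0.05 and 0.15. TK1 was called higher in LIM1215-R1 when LIM1215-parental replicate 2 was left out. DUT was at 96.6 ± 1.85 CPM in LIM1215-parental, at 100 ± 2.12 in LIM1215-R1 and at 107 ± 3.47 in LIM1215-R2, with groups that did not overlap and an adjusted p of 0.475 and 0.0233. Summed over the 5 genes, the level was 1190 ± 14.2, 1390 ± 32.1 and 1370 ± 22.3 CPM in LIM1215-parental, LIM1215-R1 and LIM1215-R2, a sum that was not tested. Pseudogenes of the members held few counts, at most 62 over the 9 libraries for RRM2P3, or 0.0781% of those of RRM2.

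Among the licensing genes, CDC6 rose while the licensing inhibitor GMNN fell. CDC6 (chromosome 17), the loader of the helicase, stood at 141, 142 and 144 CPM in LIM1215-parental, at 173, 169 and 176 in LIM1215-R1 and at 194, 178 and 179 in LIM1215-R2. The 3 lines did not overlap, with LIM1215-R2 highest. The log2 fold change was 0.28 (SE 0.048, adjusted p = 3.72e-05) in LIM1215-R1 and 0.37 (SE 0.048, adjusted p = 4.78e-07) in LIM1215-R2, and the 2 resistant lines differed by 0.09 (adjusted p = 0.232).

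GMNN (chromosome 6, 24774937 to 24786099) stood at 107, 105 and 109 CPM in LIM1215-parental, at 88.1, 89.4 and 90.0 in LIM1215-R1 and at 92.4, 98.4 and 94.4 in LIM1215-R2. All resistant libraries lay below the parental ones, those of LIM1215-R1 lowest. GMNN fell by 0.27 on the log2 scale in LIM1215-R1 (SE 0.051, adjusted p = 0.000128) and by 0.17 in LIM1215-R2 (SE 0.051, adjusted p = 0.00864), and the latter call was lost in 6 of the 9 fits with 1 library left out (adjusted p up to 0.0506), those without LIM1215-parental replicate 1 or 3, LIM1215-R1 replicate 3 or any LIM1215-R2 library. It was also lost without a filter on low counts (adjusted p = 0.0227), with DESeq2 size factors (adjusted p = 0.0108) and after removal of GC and length trends (-0.12, adjusted p = 0.0186). CDT1, the licensing factor that geminin binds, had log2 fold changes of -0.18 (adjusted p = 0.0294) and -0.15 (adjusted p = 0.0723), with parental values of 100 to 117 CPM that overlapped both resistant lines. CDT1 has the highest GC content of the members, 64.3%, and after removal of each library's GC and length trends it was called lower in both, at -0.42 and -0.32. Without LIM1215-R1 replicate 2 it was called lower in LIM1215-R1 (-0.23, adjusted p = 0.00796). The ratio of CDC6 to CDT1 CPM was 1.33 ± 0.103, 1.83 ± 0.18 and 1.90 ± 0.147 in LIM1215-parental, LIM1215-R1 and LIM1215-R2, without overlap of the parental with the resistant values (exact permutation p = 0.1, adjusted 0.18). That of GMNN to CDT1 CPM was 1 ± 0.0888, 0.945 ± 0.079 and 0.985 ± 0.0528 in the same order, with overlapping lines. It did not differ by exact permutation (p = 0.5 and 0.8, adjusted 0.643 and 0.847). The origin recognition subunits ORC1 and ORC6 had log2 fold changes of at most 0.07 in size and did not pass the test.

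Of the 6 subunits of the MCM2-7 ring, which are needed in equal number in each ring, 4 fell in LIM1215-R1 (66.7%) and 3 in LIM1215-R2 (50%), beside 13.4% and 11.6% of all genes and 20% and 16.8% of those averaging 100 counts or more. MCM5 (chromosome 22, 35400140 to 35455031) stood at 195, 220 and 208 CPM in LIM1215-parental, at 152, 168 and 158 in LIM1215-R1 and at 170, 167 and 183 in LIM1215-R2. Every resistant library lay below every parental one. MCM5 fell by 0.38 on the log2 scale (SE 0.053, adjusted p = 1.38e-06) in LIM1215-R1, a fold of 0.766, and by 0.26 (SE 0.053, adjusted p = 0.00032) in LIM1215-R2, a fold of 0.836.

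MCM3 (chromosome 6, 52264015 to 52284742) stood at 389, 387 and 384 CPM in LIM1215-parental, at 333, 333 and 338 in LIM1215-R1 and at 348, 353 and 352 in LIM1215-R2. MCM4 (chromosome 8) stood at 422, 431 and 425, at 371, 384 and 371 and at 387, 386 and 392 CPM in the same order. In both genes the lines did not overlap and LIM1215-R1 was lowest. MCM3 fell by 0.21 (adjusted p = 0.000105) in LIM1215-R1 and by 0.14 (adjusted p = 0.00634) in LIM1215-R2. MCM4 fell by 0.18 (adjusted p = 0.000432) and by 0.13 (adjusted p = 0.0086). With SEs of 0.039 throughout, the LIM1215-R2 calls of both genes lay near the threshold and each was lost in all but those without LIM1215-R1 replicate 1 or 2 among the 9 fits with 1 library left out, with adjusted p-values up to 0.0284 for MCM3 and 0.0398 for MCM4.

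MCM6 stood at 249, 239 and 248 CPM in LIM1215-parental, at 217, 203 and 202 in LIM1215-R1 and at 228, 233 and 225 in LIM1215-R2. The lines did not overlap, and the parental line was highest. MCM6 fell by 0.24 in LIM1215-R1 (SE 0.045, adjusted p = 8.5e-05), and in LIM1215-R2 its log2 fold change was -0.10 (adjusted p = 0.0876). MCM2 and MCM7 did not pass the test. MCM2 was at 306 ± 17.1, 296 ± 9.22 and 306 ± 4.98 CPM, with overlapping lines, and MCM7 at 487 ± 11, 455 ± 6.91 and 462 ± 5.31, with parental libraries above all others (adjusted p = 0.0488 in LIM1215-R1 and 0.16 in LIM1215-R2). MCM2, MCM5 and MCM7 have the highest GC content of the 6, at 55.8% to 57.4%, and after removal of GC and length trends all 6 subunits were called lower in LIM1215-R1, MCM2 at -0.19 (adjusted p = 1.1e-05) and MCM7 at -0.22 (adjusted p = 4.3e-08). The summed level of the ring, which was not tested, was 2060 ± 35.7, 1830 ± 21 and 1910 ± 18.4 CPM in the same order of lines. The ratio of MCM5 to MCM2 CPM was 0.679 ± 0.0408, 0.537 ± 0.0197 and 0.568 ± 0.0247, without overlap of parental and resistant values (exact permutation p = 0.1, adjusted 0.18).

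**Figure D4:**
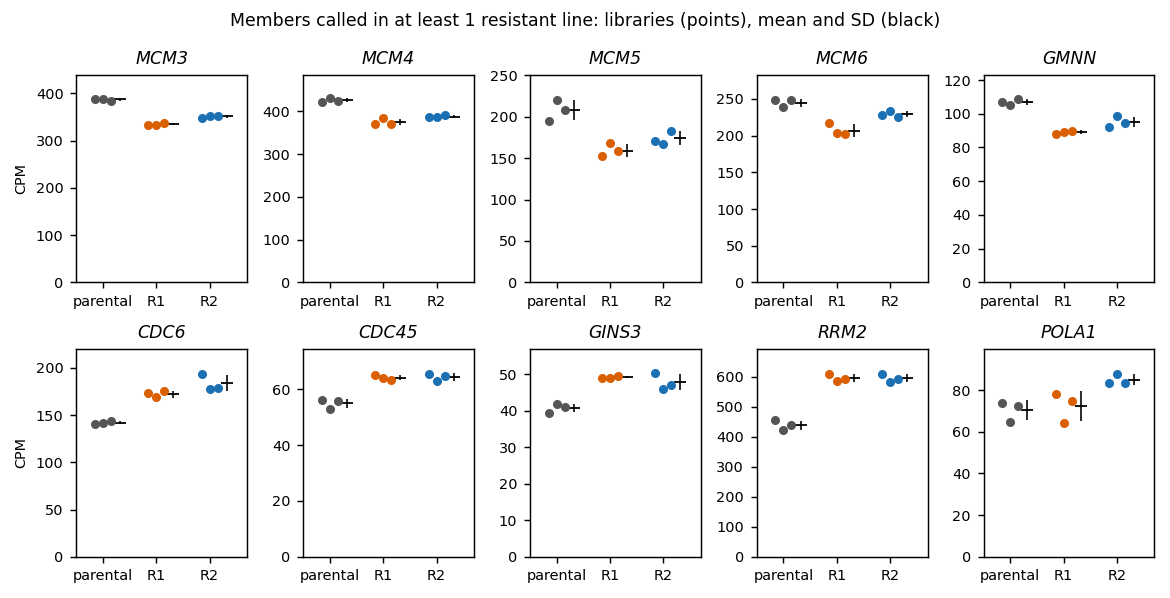
CPM of the 10 members called in at least 1 resistant line, 1 panel per gene with the y axis from 0, points for the 3 libraries of each line and black marks for the mean and SD. In the upper row MCM3, MCM4, MCM5, MCM6 and GMNN are highest in LIM1215-parental, and in the lower row RRM2 rises from 439 to 596 and 595 CPM while the 3 LIM1215-R2 libraries of POLA1 lie above the other 6.

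Of the 6 cofactors that switch the ring on, CDC45 and GINS3 rose in both lines (33.3%). Of all genes 14% rose in LIM1215-R1 and 12.3% in LIM1215-R2, and of those averaging 100 counts or more 20.2% and 18.1%. CDC45, which joins the ring and GINS in the active helicase, stood at 56.0, 53.0 and 55.6 CPM in LIM1215-parental, at 65.1, 64.1 and 63.2 in LIM1215-R1 and at 65.6, 62.8 and 64.7 in LIM1215-R2. GINS3, a subunit of the GINS complex, stood at 39.5, 41.7 and 41.0, at 49.0, 49.0 and 49.6 and at 50.3, 46.0 and 47.1 CPM. For both genes all 6 resistant libraries lay above the parental ones and the resistant lines overlapped.

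CDC45 rose by 0.22 (SE 0.057, adjusted p = 0.00268) in LIM1215-R1 and 0.23 (SE 0.057, adjusted p = 0.00243) in LIM1215-R2, and GINS3 by 0.27 (SE 0.063, adjusted p = 0.00104) and 0.23 (SE 0.063, adjusted p = 0.00536). The CDC45 call in both lines was lost without LIM1215-parental replicate 2 (adjusted p = 0.0111 and 0.0105), in LIM1215-R1 also with total counts as the scale and in LIM1215-R2 also without LIM1215-R2 replicate 1 (adjusted p = 0.0148). In LIM1215-R2 the GINS3 call was lost in 4 of the 9 fits with 1 library left out, those without replicate 1 or 3 of LIM1215-parental or of LIM1215-R2 (adjusted p up to 0.044). The partners of GINS3 in the same complex did not pass the test, with log2 fold changes of -0.12 and -0.11 for GINS1, -0.04 and -0.03 for GINS2 and -0.01 and -0.18 for GINS4, which was called lower in LIM1215-R2 without LIM1215-R2 replicate 2 (-0.24, adjusted p = 0.00928). MCM10, which is needed for the active helicase to start, had 0.09 and 0.15 (adjusted p = 0.244 and 0.0484).

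POLA1, the catalytic subunit of polymerase alpha (chromosome X), stood at 73.7, 64.9 and 72.5 CPM in LIM1215-parental, at 78.1, 64.3 and 74.6 in LIM1215-R1 and at 83.5, 88.0 and 83.6 in LIM1215-R2. Only the libraries of LIM1215-R2 lay apart from the others, and replicate 2 was the lowest library of LIM1215-parental and of LIM1215-R1. POLA1 rose by 0.27 (SE 0.066, adjusted p = 0.00203) in LIM1215-R2, a call lost when LIM1215-parental replicate 2 (adjusted p = 0.011) or LIM1215-R2 replicate 2 (adjusted p = 0.0203) was left out, and had a log2 fold change of 0.04 (adjusted p = 0.732) in LIM1215-R1. The accessory subunit POLA2 was at 49.6 ± 2.93, 48.9 ± 2.59 and 50.1 ± 0.543 CPM. The primase subunits PRIM1 and PRIM2 had log2 fold changes of -0.29 (adjusted p = 0.0137) and -0.25 (adjusted p = 0.0167) in LIM1215-R1, which missed the threshold of 0.01, and -0.0038 and -0.13 in LIM1215-R2. PRIM1 was at 28.2, 22.7 and 22.1 CPM in the libraries of LIM1215-R1, and with replicate 1 of that line left out it was called lower at -0.41 (adjusted p = 0.000623). PRIM2 was called lower in LIM1215-R1 without that library (-0.31, adjusted p = 0.00691) or without LIM1215-parental replicate 2 (-0.31, adjusted p = 0.00402).

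The clamp, its loader and the single-strand binding protein did not pass the test in either line. PCNA was at 311 ± 22.6, 313 ± 22.7 and 303 ± 9.93 CPM, and the loader subunits RFC2, RFC3, RFC4 and RFC5 had log2 fold changes from -0.12 to 0.08 against LIM1215-parental, with none of the 5 genes under an unadjusted p of 0.05 in either line by edgeR. Of the RPA subunits, RPA1 and RPA2 lay between -0.11 and -0.04, and RPA3, the least counted member, had -0.23 (adjusted p = 0.0401) and -0.20 (adjusted p = 0.0735). FEN1, the flap nuclease, had -0.04 and 0.01. LIG1, the ligase of the lagging strand, stood at 137, 141 and 140 CPM in LIM1215-parental, at 127, 129 and 125 in LIM1215-R1 and at 125, 123 and 127 in LIM1215-R2. All 6 resistant libraries lay below the parental ones, yet the test missed the threshold (-0.14, adjusted p = 0.0251 and -0.15, adjusted p = 0.0132), and without LIM1215-R1 replicate 2 LIG1 was called lower in LIM1215-R2 (adjusted p = 0.00933). After removal of GC and length trends LIG1 was called lower in both lines, at -0.32 and -0.27.

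Histone supply and chromatin assembly genes did not pass the test either. CHAF1A, the large subunit of CAF-1, was at 114 ± 4.51, 105 ± 1.13 and 105 ± 2.77 CPM, with parental libraries above all others and an adjusted p of 0.0594 and 0.0792, and it was called lower in both lines after removal of GC and length trends (-0.27 and -0.20). CHAF1B had log2 fold changes of -0.05 and -0.10 and SLBP, which binds the stem-loop of histone mRNA, -0.04 and -0.05. The plot of summed levels by role shows all 6 resistant libraries below the parental ones for the MCM2-7 ring, for lagging strand maturation (302 ± 7.67 and 308 ± 6.35 against 320 ± 4.32 CPM) and for histone supply (303 ± 3.5 and 301 ± 3.41 against 318 ± 1.85 CPM). They lay above for deoxynucleotide synthesis, where RRM2 was the only 1 of the 5 genes that passed the test.

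**Figure D5:**
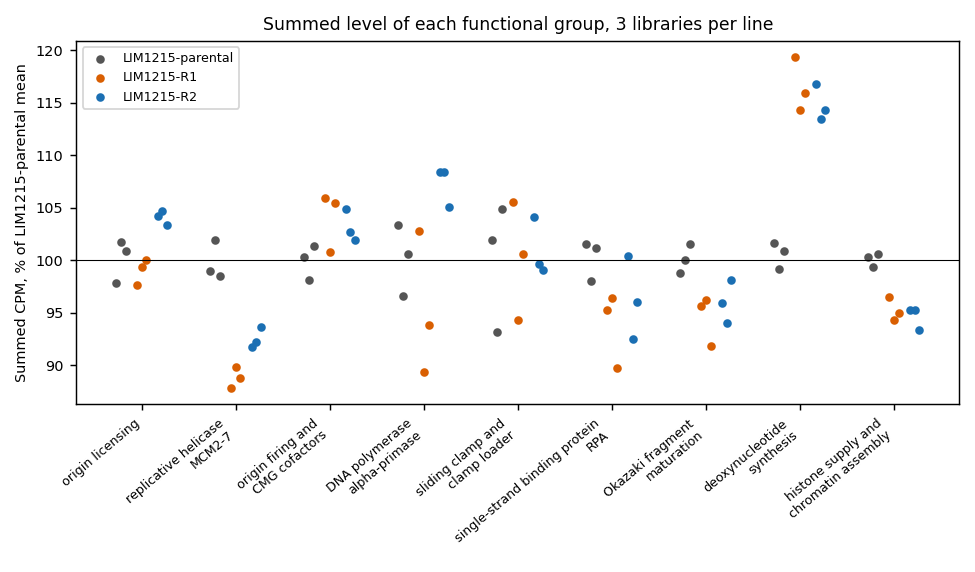
Summed CPM of the members of each role in each library, as a percentage of the LIM1215-parental mean (y axis, which does not start at 0), 3 points per line. The resistant libraries lie below all parental ones for the MCM2-7 ring (1830 and 1910 against 2060 CPM) and above them for deoxynucleotide synthesis (1390 and 1370 against 1190 CPM).

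Set against each other, the resistant lines differed in none of the 39 members at an adjusted p of at most 0.01, beside 7.16% of all genes, by edgeR or by DESeq2. Under an unadjusted p of 0.05 there were 6 members by edgeR, beside 4701 of 19102 genes and 3495 of the 10085 averaging 100 counts or more. The log2 fold change of LIM1215-R2 against LIM1215-R1 was positive for 30 of the 39, beside 9412 of 19102 genes. Its median was 0.036, beside -0.001 over all genes, and lay below the SD of the member median between libraries of a line, 0.0531. The 39 genes share their libraries and are not independent. The libraries of LIM1215-R2 lay wholly above those of LIM1215-R1 for 7 members and wholly below for 1, beside 14% of all genes in each direction. The differences nearest the threshold were those of POLA1 (0.23, SE 0.066, adjusted p = 0.0178), MCM6 (0.14, SE 0.045, adjusted p = 0.0363) and PRIM1 (0.28, SE 0.090, adjusted p = 0.0381). Leaving out LIM1215-R1 replicate 1 brought POLA1 and PRIM1 past the threshold, and leaving out LIM1215-parental replicate 2 brought POLA1 past it. After removal of GC and length trends, MCM3, MCM5, MCM6, POLA1 and PRIM1 were called higher in LIM1215-R2. These 5 were 12.8% of the members, beside 5.13% of all genes and 8.52% of those averaging 100 counts or more.

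Other genes of the same processes were read from lists. Of all genes tested, 14% were called higher and 13.4% lower in LIM1215-R1, and 12.3% and 11.6% in LIM1215-R2. Of genes averaging 100 counts or more, these shares were 20.2% and 20% in LIM1215-R1 and 18.1% and 16.8% in LIM1215-R2. Of 29 other licensing, firing and fork genes, 1 rose and 3 fell in LIM1215-R1 (3.45% and 10.3%, median -0.056). In LIM1215-R2, 4 rose and 1 fell (13.8% and 3.45%, median 0.030). CDC7, the kinase that fires loaded MCM rings, fell by 0.73 (adjusted p = 2.13e-09) in LIM1215-R1 and by 0.43 (adjusted p = 1.37e-05) in LIM1215-R2, with 54.9 ± 2.47, 33.0 ± 2.57 and 40.8 ± 2.05 CPM. TOP2A, which untangles replicated DNA, rose by 0.30 and 0.22, and DSCC1, part of an alternative clamp loader, had 0.21 (adjusted p = 0.0438) and rose by 0.29 in LIM1215-R2. Of 30 other nucleotide synthesis genes, 11 rose and 2 fell in each resistant line (36.7% and 6.67%), with medians of 0.089 and 0.102. SAMHD1, which breaks down deoxynucleotides, rose by 0.56 and 0.55, RRM2B, the other small subunit of ribonucleotide reductase, rose by 0.55 and 0.40, and NUDT1, which clears oxidized nucleotides, fell by 0.55 and 0.57. Among 10 other chromatin assembly genes, 0 rose and 2 fell (20%) in LIM1215-R1, by edgeR. An unadjusted p under 0.05 was found for 8 of them, beside 8230 of 19102 genes. In LIM1215-R2, 1 rose and 3 fell (10% and 30%). Of these the histone chaperone NASP fell by 0.35 and 0.22, RBBP4 fell by 0.18 in LIM1215-R1 (-0.13, adjusted p = 0.0246 in LIM1215-R2) and ASF1A by 0.30 in LIM1215-R2 (-0.27, adjusted p = 0.0104 in LIM1215-R1).

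Some upstream regulators had larger fold changes than any member. Of 17 E2F and pocket protein genes, 1 rose and 4 fell in LIM1215-R1 (5.88% and 23.5%) and 1 rose and 2 fell in LIM1215-R2 (5.88% and 11.8%). Of all genes tested, 14% rose and 13.4% fell in LIM1215-R1, and 12.3% and 11.6% in LIM1215-R2. Of genes averaging 100 counts or more, these shares were 20.2% and 20%, and 18.1% and 16.8%. LIN9, of the complex that joins pocket proteins to their targets, fell by 0.57 and 0.48, RBL2, a pocket protein, fell by 0.49 in LIM1215-R1 and had -0.19 (adjusted p = 0.0113) in LIM1215-R2, and TFDP2, an E2F partner, fell by 0.39 and 0.41. Of 14 G1/S cyclin and kinase genes tested, 5 rose and 2 fell in LIM1215-R1 (35.7% and 14.3%) and 4 rose and 2 fell in LIM1215-R2 (28.6% and 14.3%). They were led by CDKN1A, the gene of the CDK inhibitor p21, which rose by 1.80 and 0.95, and the RB1 kinase gene CDK6, which fell by 1.74 and 1.88. Of 20 mitotic genes, 8 rose and 1 fell in LIM1215-R1 (40% and 5%). In LIM1215-R2, 5 rose (25%) and 0 fell by edgeR, where 8 had an unadjusted p under 0.05, beside 7611 of 19102 genes. Examples, in LIM1215-R1 and then LIM1215-R2, were AURKB at 0.38 and 0.18 (adjusted p = 0.0184 in the latter), CENPF at -0.34 and -0.09 (adjusted p = 0.275 in the latter), CENPE at -0.12 (adjusted p = 0.402) and 0.46, and MKI67 at 0.20 and 0.31.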

How the data were processed

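RNA from the 3 LIM1215 lines was sequenced as stranded poly(A) libraries read from both ends, 3 per line, grouped by the submitters' sample titles. Alignment to hg38 was done by the authors with STAR, who then assigned the reads to genes with htseq-count (HTSeq 0.9.1 per the submitters' processing notes) and deposited raw counts per gene symbol, without normalization. The annotation is not given in the sources used here, and unassigned reads were not analysed.

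The counts were fitted with edgeR 4.0.16 (R 4.3.3). A total of 10 counts over all libraries was required, which 19102 genes met, TMM was used for scaling, and 1 quasi-likelihood fit held all 3 lines. The common biological coefficient of variation was 4.92%. Tests were two-sided, adjusted by Benjamini-Hochberg over all of these genes, and called genes had an adjusted p of at most 0.01. The SE was derived from the F statistic. Ratios of members were compared with exact permutation tests. Each ratio restates the CPM of its members and is not separate evidence of a change. Alternatives were other filters, DESeq2 1.42.0, DESeq2 size factors, total counts, fits to 6 libraries, a replicate block, leaving out each library, an adjusted p of at most 0.05, and GC content and length trends removed per library (splines with 5 degrees of freedom, GENCODE transcripts, 86.3% of genes tested), and for the levels coding length. A fit without the 3 libraries that rose with GC content was added after seeing the data. On simulated counts a small random set of well-counted genes was altered, with 1 common spread for all genes and no GC trends. The test called 100% of those altered by 0.5 on the log2 scale in LIM1215-R1 against parental (18709 genes tested). It called 98% in LIM1215-R2 against parental (18696 tested) and 100% between the resistant lines (18711 tested). Changes smaller than 0.5 were not simulated. The members' log2 fold changes were at most 0.44 in size, so the check does not cover them.

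Positions, promoter sequences and starts came from RefSeq tables on GRCh38.p14. The members and lists were chosen with earlier results of these data known. Members called in at least 1 comparison were given in every library, other list genes were named when called and among the 2 largest changes of their list, and promoters were shown for up to 3 members per direction called alike in both lines. No molecular identifiers were used, and libraries of the same line differed beyond counting error (chi-square per degree of freedom of 1.89 to 6.58).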

Additional observations from a re-analysis of the deposited data

Results flagged for a closer look

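Genes of the other lists were picked out because LIM1215-R2 and LIM1215-R1 differed in the direct test between them (edgeR's quasi-likelihood test, log2 fold change of LIM1215-R2 against LIM1215-R1). At most the 2 largest differences of each list are given. The S-phase kinase gene CDC7 was higher in LIM1215-R2 by 0.31 (adjusted p = 0.00427) and CLSPN, which carries the replication checkpoint signal, by 0.24 (adjusted p = 0.00853). CAD, the entry enzyme of pyrimidine synthesis, was higher by 0.22 (adjusted p = 0.00494). The pocket protein genes RBL2 and RB1 were higher by 0.30 (adjusted p = 0.00107) and 0.24 (adjusted p = 0.00722). CCND2, a cyclin of G1 phase, had a log2 fold change of -1.47 (adjusted p = 1.01e-16), with 152 ± 7.79 CPM in LIM1215-parental, against 234 ± 12.6 in LIM1215-R1 but 84.6 ± 3.36 in LIM1215-R2, so that the resistant lines lay on opposite sides of the parental one. CDKN1A had -0.85 (adjusted p = 3.93e-12), being higher than in LIM1215-parental in both lines. Of 20 mitotic genes 2 were called higher and 4 lower (10% and 20%), beside 3.39% and 3.77% of all genes and 5.65% and 5.4% of those averaging 100 counts or more. Among the mitotic genes called, CENPE had 0.58 (adjusted p = 0.000123) and AURKA -0.30 (adjusted p = 0.000209). None of the 39 members was called in this direct test, and 6 had an unadjusted p under 0.05 by edgeR, beside 4701 of 19102 genes.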

How the results depend on the processing

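Members called lower in LIM1215-R1 numbered 5, but 10 with total counts as the scale, 11 when the adjusted p could reach 0.05 and 13 with GC content and length trends removed (25.6%, 28.2% and 33.3% of members, beside 15.3%, 18.3% and 17.5% of all genes). Of genes averaging 100 counts or more, the shares were 23.4%, 26.3% and 27.2%. In LIM1215-R2 the 4 members called lower became 1 without a filter on low counts, 2 with DESeq2 size factors and 8 with these trends removed (2.56%, 5.13% and 20.5%, beside 7.9%, 11.4% and 15.6%). For genes averaging 100 counts or more these shares were 17%, 16.6% and 23.6%. Members called higher in LIM1215-R2 against LIM1215-R1 rose from 0 to 1 without a filter, to 3 at 0.05 and to 5 with trends removed (2.56%, 7.69% and 12.8%, beside 2.85%, 6.44% and 5.13%). Here the genes averaging 100 counts or more had 7.07%, 10.5% and 8.52%. With 1 library left out, counts in LIM1215-R2 ranged from 3 to 5 higher, with 3 without LIM1215-parental replicate 2 or LIM1215-R2 replicate 1, and from 1 to 5 lower, with 1 or 2 when any parental library, LIM1215-R1 replicate 3 or any LIM1215-R2 library was left out. These were 7.69% to 12.8% and 2.56% to 12.8% of the members, beside 10.4% to 13.3% and 9.36% to 12.7% of all genes. Of genes averaging 100 counts or more they were 15.1% to 19.4% and 13.3% to 18.1%. In LIM1215-R2 against LIM1215-R1 the members called higher ranged from 0 to 2 (0% to 5.13%), beside 1.56% to 4.48% of all genes. The cause was not tested. RRM2, CDC6 and MCM5 kept their calls in both lines, and MCM3, MCM4, MCM6, GMNN and GINS3 theirs in LIM1215-R1, under all 19 alternatives. No called value changed sign, and each member median moved by less than its spread between libraries. RRM2 ranked 1 rather than 4 in LIM1215-R1 by coding length.

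Same-numbered libraries deviated together only in part, with correlations from -0.173 to 0.538, so the numbers were not taken as pairs, and not every library correlated best with its own number. With the replicate block, 8 members (20.5%) were called lower in LIM1215-R1, beside 15.1% of all genes and 23.1% of those averaging 100 counts or more. In LIM1215-R2 against LIM1215-R1, 2 (5.13%) were higher, beside 5.37% and 9.1%. With the replicate block and GC content and length trends removed, 15 (38.5%) were lower in LIM1215-R1, beside 18.8% and 29.2%. In LIM1215-R2 8 (20.5%) were lower, beside 16.8% and 25.7%, and 8 (20.5%) were higher against LIM1215-R1, beside 6.45% and 10.8%.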

Other observations

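The genes outside the members and lists whose log2 CPM followed the mean of the 39 members most closely over the 9 libraries, among 18926 genes compared, were DNAJC21 (Pearson r = 0.979), DNAH14 (0.978), NPIPB5 (0.976), ANKRD10 (0.973) and ITGA6 (0.969). The points share their libraries, their depth and their GC trends, and the mean itself moved little, from 6.70 in LIM1215-R1 replicate 2 to 6.78 in LIM1215-R2 replicate 1 on the log2 CPM scale.

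The ratio of POLA1 to POLA2 CPM was 1.43 ± 0.164, 1.48 ± 0.172 and 1.70 ± 0.0479 (SD, n = 3) in LIM1215-parental, LIM1215-R1 and LIM1215-R2. The LIM1215-R2 ratios lay above all others (exact permutation p = 0.1 against either line, the smallest possible, adjusted 0.18).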
